A study of Mus musculus with 7 samples.

Results

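The cathepsins described here are 10 lysosomal and endosomal proteases, Ctsa, Ctsb, Ctsc, Ctsd, Ctse, Ctsh, Ctsk, Ctsl, Ctss and Ctsz, taken by gene symbol from a table of 24421 genes counted in 7 mouse tumours. All 10 were in the table and all 10 passed the filter on low counts. Polyadenylated RNA was sequenced from tumours taken at week 4 of antibody treatment, and every library carries the name of a different mouse. Means ± SD below are over n = 4 anti-LAIR1 and n = 3 anti-KLH tumours, in counts scaled to library size (CPM). In 4 mice anti-LAIR1, directed at an inhibitory collagen receptor of leukocytes, was given together with anti-PD-1, directed at an inhibitory T cell receptor. The other 3 mice received anti-PD-1 together with anti-KLH, whose target, keyhole limpet haemocyanin, mice do not have, so that PD-1 blockade is common to both groups. The series text describes tumours of the lung cancer line 344SQ (from K-rasLA1/+p53R172H∆g/+ mice) grown under the skin of 129/Sv mice aged 6 to 8 weeks. It also describes lung tumours of KrasLSL-G12D/p53fl/fl mice infected with Cre adenovirus at 3 to 4 months of age, and which of the kinds these 7 tumours were is not stated. Mouse names begin with WTSV in all anti-LAIR1 mice and with LOHM or KWM in all anti-KLH mice, so whatever the prefixes mark cannot be told apart from treatment.

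Cathepsins are made as inactive precursors, carried to lysosomes by mannose-6-phosphate receptors and activated by removal of a propeptide at low pH. The name covers different enzyme classes: Ctsb, Ctsc, Ctsh, Ctsk, Ctsl, Ctss and Ctsz are papain-like cysteine proteases, Ctsd and Ctse are aspartic proteases, and Ctsa is a serine carboxypeptidase. In tumours they are made by cancer cells, macrophages and fibroblasts, where they degrade proteins in lysosomes, cut the invariant chain of class II antigen-presenting molecules, and, when released, cut collagen and other matrix proteins.

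Transcription factors of the TFEB family switch on lysosomal genes through a short palindrome known as the CLEAR element, and interferons act through other short elements, so promoters of a steady pair of members and of a variable one are shown. The following RefSeq windows (GRCm38, 5′ to 3′ on the gene's strand, from 250 bases before to 30 bases after the annotated start) belong to Ctsa and Ctsd, which varied together, and to Ctss, which varied with class II genes. Capitals mark letters that matched a searched motif.
Ctsa (chr2:164833523-164833802, plus strand): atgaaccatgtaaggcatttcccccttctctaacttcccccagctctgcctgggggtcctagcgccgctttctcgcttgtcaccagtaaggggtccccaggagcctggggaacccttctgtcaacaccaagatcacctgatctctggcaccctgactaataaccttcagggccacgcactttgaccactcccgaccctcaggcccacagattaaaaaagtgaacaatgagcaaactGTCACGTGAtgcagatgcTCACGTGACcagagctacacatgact
Ctsd (chr7:142387798-142388077, minus strand): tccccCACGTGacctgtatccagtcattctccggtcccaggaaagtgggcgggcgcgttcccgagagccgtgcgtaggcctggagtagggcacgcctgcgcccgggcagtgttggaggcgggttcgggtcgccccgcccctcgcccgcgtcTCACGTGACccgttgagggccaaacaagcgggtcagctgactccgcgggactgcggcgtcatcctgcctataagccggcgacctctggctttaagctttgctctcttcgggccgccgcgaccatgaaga
Ctss (chr3:95526536-95526815, plus strand): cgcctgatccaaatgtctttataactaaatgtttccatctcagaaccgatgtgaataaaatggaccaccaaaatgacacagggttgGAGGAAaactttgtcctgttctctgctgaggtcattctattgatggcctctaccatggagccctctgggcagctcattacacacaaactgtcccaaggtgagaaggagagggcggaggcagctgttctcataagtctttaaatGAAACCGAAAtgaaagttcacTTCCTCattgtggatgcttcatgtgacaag
Both the Ctsa and the Ctsd window hold the CLEAR core TCACGTGA, extended to TCACGTGAC on one strand, and the Ctsa window holds it at 2 places, the nearer to its 5′ end at bases 237 to 245 on the opposite strand and the other at bases 255 to 263. In the Ctsd window it lies at bases 152 to 160. Each CLEAR core contains the E-box CACGTG, which the Ctsd window holds once more near its 5′ end. The Ctss window holds an interferon-stimulated response element core, GAAA, any 2 bases and GAAA again, at bases 230 to 239 and the PU.1 core GAGGAA at 2 places, at one of them on the opposite strand.

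Promoter windows of 7 of the 10 members were in the RefSeq table, 8 windows in all because Ctsa has 2. The Ctsa window that is not printed begins at base 164832622, spans the annotated gene start at 164832873 and held no searched motif. The printed Ctsa window begins at base 164833523, inside the annotated gene. The printed Ctsd window spans the annotated gene start at 142388038, and its CLEAR core lies past that start, inside the annotated gene. Ctsb, Ctse and Ctsh had no entry. The window of Ctsz, the member that varied least within groups, held no searched motif. Both strands were searched over the full windows, which reach 50 bases past the start. TCACGTGA was in 2 of these 8 windows and in 0.974% of all 32851 windows, and TCACGTGAC in the same 2 and in 0.782%. CACGTG was in 3 (the Ctsl window being the other) and in 7.15%. The interferon-stimulated response element core was in 1 window, that of Ctss, and in 3.44% of all windows. The gamma-activated site TTCNNNGAA was in 1 window, that of Ctsc, and in 8.30%, and GAGGAA was in 3, those of Ctsk, Ctss and Ctsc, and in 28.3%. A match describes letters only, no binding was measured, and a link between motifs and steadiness was not tested.

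No cathepsin differed detectably between anti-LAIR1 and anti-KLH tumours. By edgeR's quasi-likelihood test, 0 of the 10 had an adjusted p under 0.05, against 0% of the 13545 genes tested, and 0 had an unadjusted p under 0.05, against 3.51% of genes higher and 1.63% lower with anti-LAIR1. Over all genes 697 had an unadjusted p under 0.05. DESeq2 called 0 members. Of all genes it placed 0.376% higher and 0.0144% lower. With limma-voom 0 members were called, against 0% of genes. Groups overlapped for all 10 members. Of all genes 3.06% lay wholly higher and 2.51% wholly lower in anti-LAIR1 tumours, so 0 of 10 members is near the share over all genes. By edgeR the log2 fold change (anti-LAIR1 minus anti-KLH) was above 0 for 8 of 10 members, against 49.1% of all genes. The members' edgeR median was 0.056, beside -0.0028 for all genes. With limma-voom 6 of the 10 members were above 0 and 4 below.

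**Figure D1:**
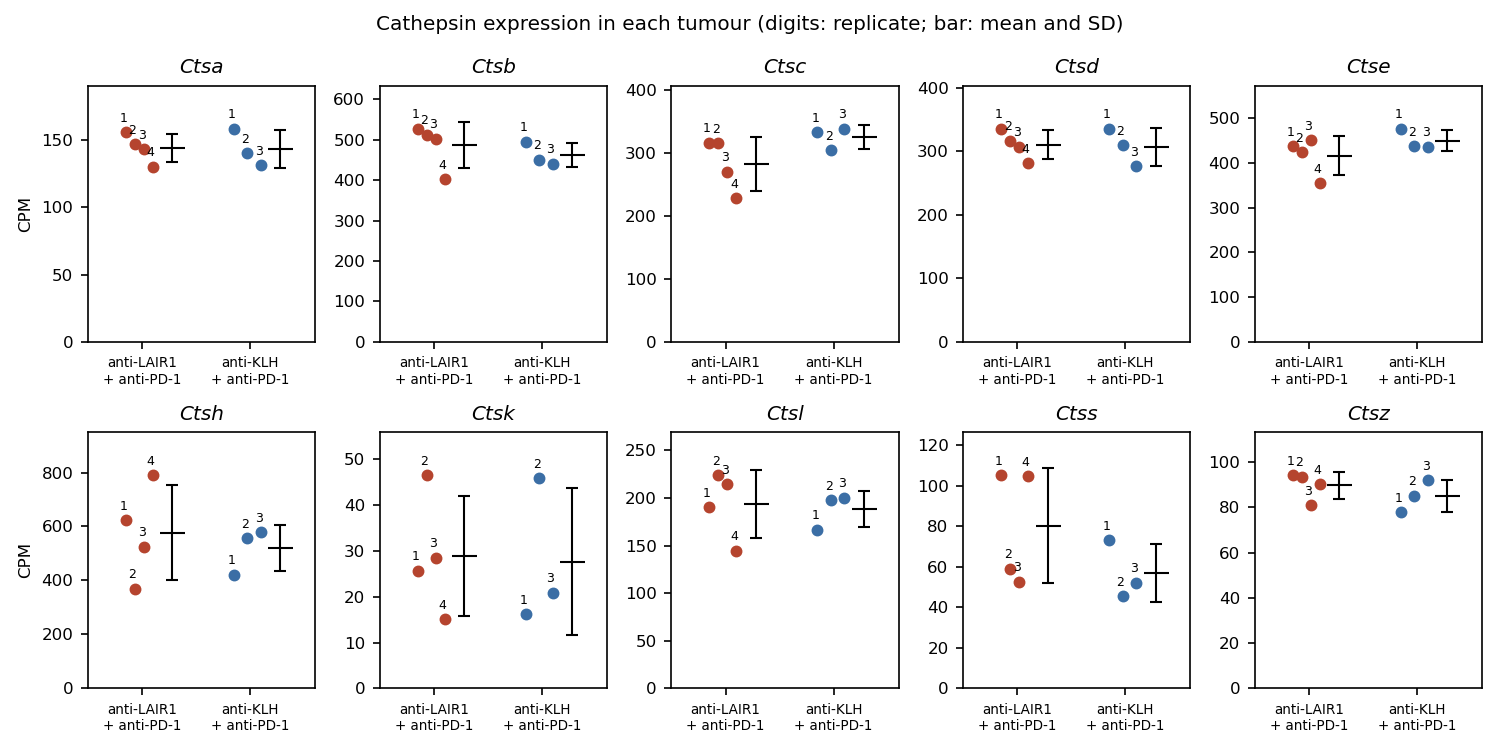
Expression of the 10 cathepsins in CPM (linear axes from 0), with 1 point per tumour, anti-LAIR1 on the left and anti-KLH on the right, both with anti-PD-1; digits give the replicate, and bars the mean and SD (n = 4 and n = 3). The groups overlap in every panel, and Ctsk, Ctss and Ctsh spread most.

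Total counts were 11480651 to 15347403 in anti-LAIR1 libraries and 9879762 to 26255727 in anti-KLH libraries, and single members were counted with 205 to 12503 reads. The 10 genes together took 0.250% to 0.278% of all counts with anti-LAIR1 and 0.246% to 0.259% with anti-KLH. Epithelial markers were abundant in every tumour, with a summed level of 4279 to 5319 CPM in anti-LAIR1 and 4312 to 5112 CPM in anti-KLH tumours, and Nkx2-1, a lung lineage factor, was at 129 to 210.3 CPM with anti-LAIR1 and 139 to 191 CPM with anti-KLH. Of other tissues, 10 skeletal muscle markers summed to 10.5 to 121 CPM with anti-LAIR1 and 5.27 to 8.38 CPM with anti-KLH, and 4 keratinocyte markers to 12.8 to 24.4 CPM with anti-LAIR1 and 24.5 to 124 CPM with anti-KLH. All 11 macrophage markers had a log2 fold change above 0 (median 0.40, 2 wholly separated). By edgeR 0 had an adjusted p under 0.05 and 2 an unadjusted one, while DESeq2 called 1, the growth factor receptor gene Csf1r (DESeq2 adjusted p = 0.00948, edgeR adjusted p = 0.608). The markers summed to 559 to 692 CPM in anti-LAIR1 and 443 to 587 CPM in anti-KLH tumours. Their mean log2 CPM, used as a covariate below, was 4.96 to 5.23 with anti-LAIR1 and 4.59 to 4.82 with anti-KLH. As this level did not overlap between groups, a fit that includes it cannot separate it well from treatment. Mean log2 CPM of the tested muscle markers, also a covariate below, was 3.55, -0.488, 3.32 and 3.56 in anti-LAIR1 replicates 1 to 4. It was -0.693, -0.375 and 0.133 in anti-KLH replicates 1 to 3. Only anti-LAIR1 replicate 2 lay among the controls, so the muscle level also cannot be separated well from treatment. In bulk tumour RNA, more or fewer cells of a type and more or less RNA per cell cannot be told apart.

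Levels per length of exon were compared between members, because longer transcripts collect more reads. Dividing CPM by the merged exon length of the GENCODE M21 annotation (GRCm38) placed Ctsh highest, with a median of 345 CPM per kilobase over the 7 libraries and a range of 228 to 489. Next came Ctse (206, from 167 to 224), Ctsd (145, from 130 to 158) and Ctsb (104, from 84.7 to 111). The ranges of neighbours among these 4, and of Ctsb and the next member, Ctsz, did not overlap. Ctsz (62.6), Ctsc (59.2), Ctss (43.5), Ctsa (39.0), Ctsl (32.1) and Ctsk (17.0) followed, and each overlapped its neighbour in this order. Which exons the authors counted over is not given, so these per-length levels depend on the annotation chosen.

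Ctsa, Ctsd and Ctsz, of the housekeeping members, varied least from tumour to tumour and did not differ detectably between groups. Ctsa, the carboxypeptidase that protects the lysosomal sialidase Neu1 and beta-galactosidase Glb1 (chromosome 2, 164832873 to 164841032), was at 156, 147, 143 and 130.3 CPM in anti-LAIR1 replicates 1 to 4, and at 159, 140.3 and 131 CPM in anti-KLH replicates 1 to 3. The groups covered nearly the same interval, and the log2 fold change was 0.006 (95% interval -0.21 to 0.22, edgeR adjusted p = 1.00). Ctsd, the main lysosomal aspartic protease (chromosome 7, 142375911 to 142388038), was at 335, 316, 307 and 281 CPM in anti-LAIR1 tumours, against 335, 309 and 276 CPM in anti-KLH tumours. Its log2 fold change was 0.014 (95% interval -0.20 to 0.23), so a change beyond about 1.17-fold lay outside the interval. Ctsz, a carboxypeptidase also called cathepsin X (chromosome 2, 174427493 to 174439039), averaged 89.8 ± 6.06 CPM with anti-LAIR1 and 85.1 ± 7.07 CPM with anti-KLH, and its interval ran from -0.13 to 0.29. Within groups the log2 levels of Ctsz, Ctsa and Ctsd had SDs of 0.11, 0.12 and 0.12, below the median of 0.15 over 8275 well expressed genes (average log2 CPM 4 or more). For Ctsd, 31.5% of the exon bases are shared with the same-strand gene Gm49369, and for Ctsa 13.5% and 8.82% with Pltp and Neurl2 on the opposite strand, and for Ctsb 16.3% with Fdft1 and for Ctsl 28.2% with the antisense gene Gm47123. As the strand setting of the counting is not given, the counts of Ctsa, Ctsb and Ctsl are uncertain to that extent. For Ctsd, whose overlap is on the same strand, the uncertainty lies in the annotation counted over, which is not given either.

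Ctsb, Ctsl and Ctse also did not differ detectably between groups. Ctsb, a cysteine protease that cuts both within chains and from their ends (chromosome 14, 63122462 to 63145923), averaged 486 ± 57.1 CPM with anti-LAIR1 and 462 ± 28.9 CPM with anti-KLH, with an interval of -0.17 to 0.31 on the log2 scale. Ctsl, a broad lysosomal endopeptidase (chromosome 13, 64359337 to 64370890), averaged 193 ± 35.5 CPM with anti-LAIR1 and 188 ± 18.6 CPM with anti-KLH, with an interval of -0.29 to 0.37. With the macrophage marker level, which did not overlap between groups, as a covariate the Ctsl log2 fold change was 0.62 (edgeR adjusted p = 0.999). Its close relatives of the mouse placenta, Ctsj, Ctsm, Ctsq, Ctsr, Cts3, Cts6, Cts7 and Ctsll3, were at 0 counts in all 7 libraries. Ctse, an aspartic protease best known from stomach lining and immune cells (chromosome 1, 131638306 to 131675505), was at 438, 424, 450.4 and 355 CPM in anti-LAIR1 tumours and 477, 438 and 436 CPM in anti-KLH tumours. Anti-LAIR1 replicate 4 was the lowest of the 7, and the log2 fold change was -0.11 (95% interval -0.33 to 0.11). The stomach genes Gkn1, Gkn2, Tff1, Tff2 and Muc5ac, together summed to 9.48 to 31.7 CPM with anti-LAIR1 and 9.86 to 30.3 CPM with anti-KLH.

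Ctsc had the smallest edgeR p of the 10 members. It encodes dipeptidyl peptidase I, which activates granzymes and other serine proteases of killer cells, mast cells and neutrophils (chromosome 7, 88278085 to 88310888). Its levels were 316, 315, 270.1 and 228 CPM in anti-LAIR1 tumours, against 333, 304 and 339 CPM in anti-KLH tumours. Replicates 3 and 4 of the anti-LAIR1 group were below every control, while replicates 1 and 2 lay among them. The log2 fold change was -0.20 (95% interval -0.47 to 0.064, SE 0.12, edgeR adjusted p = 0.980). It was -0.12 without anti-LAIR1 replicate 4 and -0.064 with the muscle marker level as a covariate. The direction was the opposite of that of its substrates: 4 of 8 listed genes for proteases that Ctsc activates passed the count filter, all 4 were above 0 with a median of 1.41 (0.93 without anti-KLH replicate 1). By edgeR 0 passed after adjustment and 2 had an unadjusted p under 0.05, and DESeq2 called 1, Gzmb. Gzmb, granzyme B of cytotoxic lymphocytes, was at 11.98, 8.91, 6.65 and 4.72 CPM with anti-LAIR1 and 4.04, 2.09 and 1.63 CPM with anti-KLH, without overlap (edgeR adjusted p = 0.640, DESeq2 adjusted p = 0.0252). Cma1, a mast cell chymase, averaged 2.20 ± 0.759 CPM with anti-LAIR1 and 0.818 ± 0.746 CPM with anti-KLH, with overlap (edgeR adjusted p = 0.951). These genes differ greatly in level from Ctsc, and whether their direction differs from that of Ctsc was not tested. Of T cell markers all 5 tested were above 0, with 0 called by edgeR or DESeq2 and 2 at an unadjusted p under 0.05, and the 6 listed summed to 5.53 to 28.8 CPM with anti-LAIR1 and 2.84 to 12.4 CPM with anti-KLH. Their sum did not order the tumours as Gzmb did: anti-LAIR1 replicate 4 had the lowest Gzmb of its group and a T cell sum of 27.4 CPM. Mast cell markers, all 5 above 0 with 0 called by edgeR or DESeq2, summed to 46.3 to 109 CPM with anti-LAIR1 and 34.7 to 45.8 CPM with anti-KLH, and the part of either cell type was not tested.

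Ctss had the largest fold change of the 10 members. It encodes the protease that removes the invariant chain from class II molecules in antigen-presenting cells (chromosome 3, 95526786 to 95556403). It was at 105, 59.1, 52.6 and 105 CPM in anti-LAIR1 replicates 1 to 4, against 73.2, 45.6 and 52.2 CPM in anti-KLH replicates 1 to 3. Anti-LAIR1 replicates 1 and 4 stood above all controls, whereas replicates 2 and 3 lay within the range of the controls. The log2 fold change was 0.49 (95% interval -0.20 to 1.18, SE 0.30, edgeR adjusted p = 0.993, DESeq2 adjusted p = 0.965). The interval includes both no change and a change of 2.27-fold.

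Tumours high in Ctss were high in class II genes in both groups, though the order of the tumours was not fully the same. The invariant chain gene Cd74 was at 1322 and 1211 CPM in anti-LAIR1 replicates 1 and 4, at 595 and 398 CPM in replicates 2 and 3, and at 744, 292 and 288 CPM in anti-KLH replicates 1 to 3. Thus anti-KLH replicate 1 held more Ctss and more Cd74 than anti-LAIR1 replicates 2 and 3. Between Ctss and the mean log2 CPM of 8 class II genes, Pearson's r was 0.95 (exact permutation p = 0.00139, 0.060 after Benjamini-Hochberg adjustment over 43 relations) and Spearman's rho 0.93 (exact permutation p = 0.00675, adjusted 0.290) over 7 libraries. This relation was added after the values were seen. Without anti-KLH replicate 3 and anti-LAIR1 replicate 4, the libraries farthest from the median, r was 0.97, and it was 0.96 after each group's mean was subtracted. With the macrophage markers r was 0.79 (exact permutation p = 0.0423, adjusted 0.456) and rho 0.82 (p = 0.0341), and r was 0.58 without the 2 farthest libraries. With the macrophage marker level as a covariate, an alternative added after the data were seen, the Ctss fold change turned to -0.84 (SE 0.31, edgeR adjusted p = 0.999). The macrophage level did not overlap between groups, so this value does not show how Ctss would differ at an equal macrophage level. With the muscle marker level, which also cannot be separated well from treatment, the Ctss fold change was 0.091.

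All 8 class II and invariant chain genes were above 0, with a median log2 fold change of 1.096. By edgeR 0 passed after adjustment and 2 had an unadjusted p under 0.05, and DESeq2 called 1, H2-DMb2. H2-DMb2, a peptide-loading subunit, averaged 3.71 ± 1.24 CPM with anti-LAIR1 and 0.903 ± 0.446 CPM with anti-KLH, without overlap (edgeR adjusted p = 0.624, DESeq2 adjusted p = 0.00969). H2-DMb2 had 4 reads in anti-KLH replicate 3. H2-DMa, its partner chain, averaged 31.2 ± 15.3 CPM with anti-LAIR1 and 14.6 ± 7.14 CPM with anti-KLH, with overlap (adjusted p = 0.967). Endosomal Toll-like receptors, which cathepsins cut before they signal, were above 0 for all 6 listed genes including the chaperone Unc93b1 (median 0.54), with 0 called by edgeR or DESeq2 and 4 at an unadjusted edgeR p under 0.05. Tlr9, a DNA sensor, was the 1 of these whose groups did not overlap, at 1.95 ± 0.808 CPM with anti-LAIR1 and 0.536 ± 0.188 CPM with anti-KLH (edgeR adjusted p = 0.652). It had only 6 and 4 reads in anti-KLH replicates 2 and 3. Tlr3, a sensor of double-stranded RNA, averaged 33.3 ± 10.9 CPM with anti-LAIR1 and 21.4 ± 3.84 CPM with anti-KLH (adjusted p = 0.947).

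Ctsk, the collagen-cutting cathepsin of osteoclasts and fibroblasts (chromosome 3, 95499256 to 95509362), lies 17423 bases upstream of Ctss on the same strand, and it varied most of the 10 members. It was at 25.7, 46.6, 28.5 and 15.0 CPM in anti-LAIR1 tumours, against 16.2, 45.9 and 20.9 CPM in anti-KLH tumours. One tumour of each group, replicate 2 in both, stood at about the same high level, and the remaining 5 lay at 28.5 CPM or below. The highest level was 3.10 times the lowest, the within-group SD of log2 CPM was 0.71, and the log2 fold change was 0.072 with a 95% interval of -1.003 to 1.147 (edgeR adjusted p = 1.00). A change by a factor of 2 in either direction was therefore within the reach of error. Between the neighbours Ctsk and Ctss, r was -0.59 (exact permutation p = 0.171) and rho -0.46 (p = 0.302) over 7 libraries.

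The same 2 tumours were highest for 2 further genes of the osteoclast list, Acp5 and Mmp9, but not for the whole list. Tnfrsf11a, the receptor for the osteoclast growth signal RANKL, was highest in replicate 3 of both groups, at 13.2 CPM with anti-LAIR1 and 12.4 CPM with anti-KLH, and was named, like Mmp9, after its values were seen. Acp5, tartrate-resistant acid phosphatase, was at 44.8 CPM in anti-LAIR1 replicate 2 and 37.2 CPM in anti-KLH replicate 2. It was at 10.1, 12.8 and 11.1 CPM in anti-LAIR1 replicates 1, 3 and 4, and at 6.81 and 8.45 CPM in anti-KLH replicates 1 and 3. Mmp9, a gelatinase, was at 110.6 CPM in anti-LAIR1 replicate 2 and 113 CPM in anti-KLH replicate 2, and between 7.09 and 37.3 CPM in the others. Between Ctsk and the mean log2 CPM of the osteoclast list, a relation added after the values were seen, r was 0.89 (exact permutation p = 0.0127, adjusted 0.273) and rho 0.82 (p = 0.0341, adjusted 0.293). Without these 2 tumours r was 0.52, so the relation rests on them. With the fibroblast markers, a planned relation, Ctsk had r = 0.49 (exact permutation p = 0.261, adjusted 0.747) and rho = 0.54 (p = 0.236). Of the 7 osteoclast genes tested 5 were above 0 and 2 below between groups, with a median of 0.063, 0 called by edgeR or DESeq2 and 0 at an unadjusted edgeR p under 0.05. Dcstamp, a fusion protein of osteoclasts, averaged 2.12 ± 0.851 CPM with anti-LAIR1 and 1.49 ± 0.434 CPM with anti-KLH, and Atp6v0d2, a proton pump subunit, 6.13 ± 3.42 CPM with anti-LAIR1 and 4.33 ± 0.893 CPM with anti-KLH. With the macrophage marker level, which did not overlap between groups, as a covariate the Ctsk fold change was 2.24 (edgeR adjusted p = 0.239). Without that covariate the Ctsk fold change turned to -0.26 when anti-LAIR1 replicate 2 was left out, to -0.22 without anti-KLH replicate 1 and to -0.093 without anti-KLH replicate 3.

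Ctsh was the most abundant member per length and the third of the 10 members in spread. It is an aminopeptidase that, in alveolar type II cells, takes part in maturing surfactant protein B (chromosome 9, 90054152 to 90076089). It was at 623, 369, 524 and 790.4 CPM in anti-LAIR1 tumours, against 422, 557 and 579 CPM in anti-KLH tumours. The highest and the lowest of the 7 tumours were both in the anti-LAIR1 group. The log2 fold change was 0.15 (95% interval -0.41 to 0.71, edgeR adjusted p = 1.00), it turned to -0.042 without anti-LAIR1 replicate 4, to -0.12 with limma-voom and to -0.49 with the muscle marker level as a covariate. With the muscle markers Ctsh had r = 0.69 (exact permutation p = 0.1, adjusted 0.538) and rho = 0.86 (p = 0.0238), and r was 0.36 without the 2 farthest libraries.

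Sftpb, which encodes surfactant protein B, was at 1582, 1094, 1235 and 3103 CPM in anti-LAIR1 replicates 1 to 4, and at 1184, 1364 and 1536 CPM in anti-KLH replicates 1 to 3. Its order over the tumours was that of Ctsh in 7 of 7 places; the orders of Ctss and Cd74 matched in 5, of Ctsk and Acp5 in 3 and of Ctsk and Mmp9 in 0. Sftpb was picked out of the list of 5 lung epithelium genes after its values were seen, so the match is a description without a test. With the mean of the 3 tested genes of that list, Sftpb, Sftpa1 and Nkx2-1, Ctsh had r = 0.071 (exact permutation p = 0.872) and rho = 0.11 (p = 0.840). Sftpc, another surfactant gene, was at 0.524 CPM or less in all 7 tumours.

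**Figure D2:**
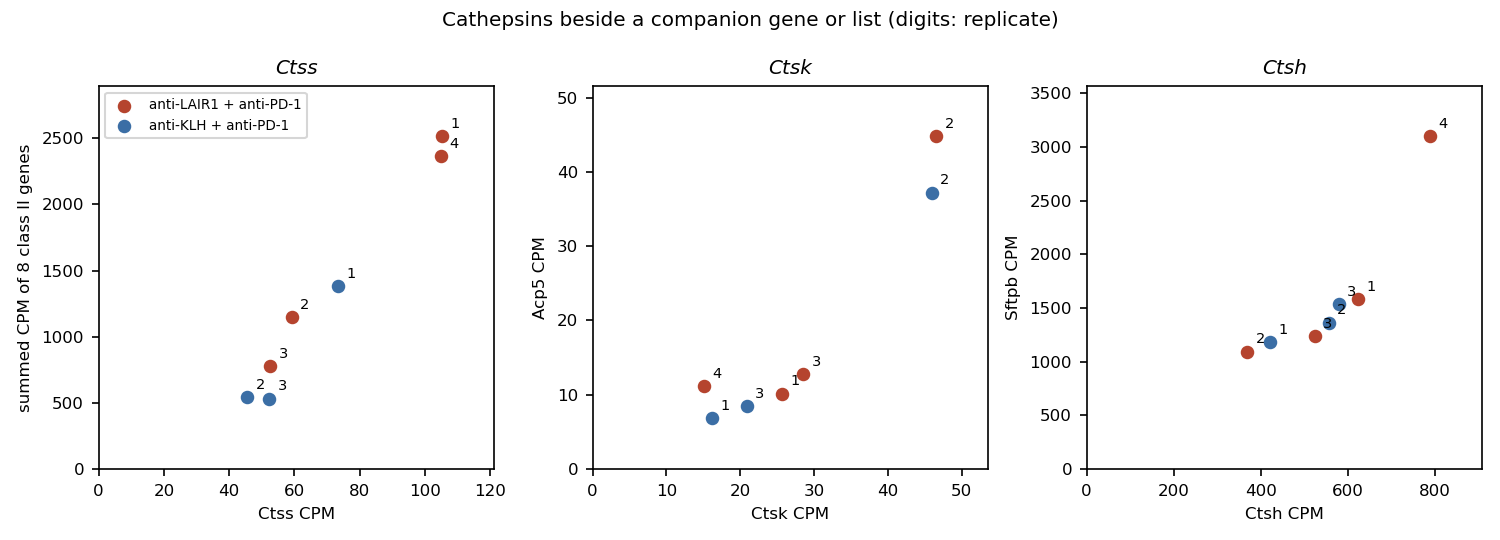
Each panel plots the CPM of a cathepsin (horizontal) against a companion (vertical), with 1 point per tumour and linear axes from 0: Ctss against the summed CPM of 8 class II genes, Ctsk against Acp5, and Ctsh against Sftpb; digits give the replicate. Ctss and the class II sum are highest in anti-LAIR1 replicates 1 and 4, Ctsk and Acp5 in replicate 2 of both groups, and Ctsh and Sftpb in anti-LAIR1 replicate 4.

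The members did not vary as one block. Of 45 pairs, 29 had a positive Pearson r over the 7 libraries, 4 had an exact permutation p under 0.05, and 0 passed after adjustment over the 45. The closest pair was Ctsa with Ctsd, with r = 0.98 (exact permutation p = 0.00278, adjusted 0.125) and rho = 0.89 (p = 0.0123), and r was 0.97 without anti-LAIR1 replicate 4 and anti-KLH replicate 1. The other 3 pairs were Ctsa with Ctsb (r = 0.85, exact permutation p = 0.0155), Ctsb with Ctsd (r = 0.83, p = 0.0222) and Ctsk with Ctsl (r = 0.80, p = 0.0288), with an adjusted p of 0.324 each. Their rho values were 0.79, 0.79 and 0.82, and without the 2 farthest libraries r was 0.91, 0.50 and 0.90. Ctsl and Ctsk were both lowest in anti-LAIR1 replicate 4, where Ctss and Ctsh were at or near their highest. Depth and composition are shared by all genes of a library, and their part in these relations was not tested.

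**Figure D3:**
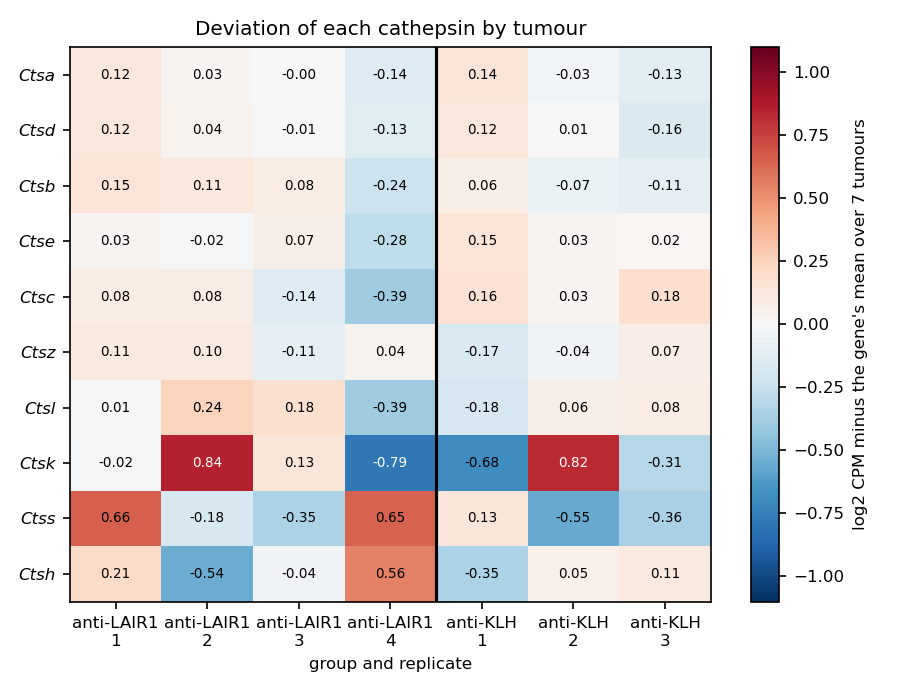
Deviation of each cathepsin (rows) in each tumour (columns, anti-LAIR1 left of the line, anti-KLH right), as log2 CPM minus the gene's mean over 7 tumours; red is above and blue below the mean. Ctsa, Ctsd and Ctsb stay within 0.24 of their means and share their signs in most tumours, while Ctsk ranges from -0.79 to 0.84.

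The genes most like each member in level over the 7 libraries, searched among those 8275 genes with the cathepsins left out, were ranked by Pearson's r as a description. Ctss was nearest to H2-DMb1, Psme2 and Sp100 (r of 0.99, 0.98 and 0.98), a class II loading subunit, a proteasome activator subunit and a nuclear body protein. Ctsa was nearest to the scavenger receptor gene Msr1, the lysosomal membrane gene Lamp2 and Pias1 (0.99, 0.99 and 0.98), and Ctsd to Arih1, Pias1 and Wdr48 (0.99, 0.98 and 0.98). Ctsb was nearest to 9530068E07Rik, Arl8a and Nptn (0.98, 0.98 and 0.97), Arl8a being a lysosomal GTPase. Ctsh was nearest to Pdik1l, Myh7 and Atp1b1 (0.95, 0.95 and 0.94), and Ctsk to Stam, Eny2 and Ankrd44 (0.98, 0.96 and 0.96). For Ctsc they were Camsap2, Xpo6 and Pon2 (0.99, 0.99 and 0.97), and for Ctse Fam32a, Ppp2r1a and Ppfibp1 (0.98, 0.98 and 0.97). For Ctsl they were Thoc2, H3f3b and Tspan7 (0.98, 0.98 and 0.97), and for Ctsz they included Plaa and Hif1a (0.94 and 0.93). Each was picked as the highest of many values from 7 libraries.

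Most cathepsins outside the 10 did not pass the count filter. Of 13 further genes of the family 3 were tested, 2 above 0 and 1 below, with 0 called by edgeR or DESeq2 and 0 at an unadjusted edgeR p under 0.05. Ctsw, expressed in cytotoxic lymphocytes, was at 3.75, 3.06, 1.81 and 3.56 CPM in anti-LAIR1 tumours and at 2.69, 1.496 and 1.22 CPM in anti-KLH tumours. The difference was 0.71 on the log2 scale (SE 0.37, edgeR adjusted p = 0.980), on few reads. Ctso averaged 32.1 ± 7.61 CPM with anti-LAIR1 and 30.01 ± 4.65 CPM with anti-KLH.

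Of the 15 listed cathepsin inhibitors, 4 passed the count filter, and all 4 were above 0 with a median of 0.56, 0 called by edgeR or DESeq2 and 2 at an unadjusted edgeR p under 0.05. The median was 0.25 without anti-LAIR1 replicate 1. Cst3, cystatin C, the secreted inhibitor of cysteine cathepsins, was at 73.1, 78.7, 67.7 and 85.9 CPM in anti-LAIR1 tumours, against 68.4, 64.5 and 63.0 CPM in anti-KLH tumours. Only anti-LAIR1 replicate 3 lay within the range of the controls, and the log2 fold change was 0.22 (SE 0.098, edgeR adjusted p = 0.966). Serpina3g, an interferon-inducible serpin that inhibits cathepsins, averaged 9.09 ± 3.17 CPM with anti-LAIR1 and 5.00 ± 1.65 CPM with anti-KLH (adjusted p = 0.933). Cstb, cystatin B of the cytosol, averaged 78.1 ± 6.93 CPM with anti-LAIR1 and 72.2 ± 11.1 CPM with anti-KLH, and Cst7, a cystatin of killer and myeloid cells that acts on Ctsc, 1.03 ± 0.726 CPM with anti-LAIR1 and 0.498 ± 0.429 CPM with anti-KLH.

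Other lysosomal lists also had medians near 0. Of 26 other hydrolases 15 were above 0 and 11 below, with a median log2 fold change of 0.010, and of 15 tested vacuolar proton pump subunits 7 were above 0 and 8 below, with a median of -0.017. The 11 lysosomal membrane genes had a median of 0.061 with 6 above 0, the 7 sorting genes 0.044 with 5 above 0, and the 5 processing and partner genes 0.074 with 3 above 0. None of these lists had a gene called by edgeR or DESeq2, and 2 hydrolases and 2 membrane genes had an unadjusted edgeR p under 0.05. Neu1, a partner of Ctsa, averaged 40.4 ± 4.79 CPM with anti-LAIR1 and 41.7 ± 3.81 CPM with anti-KLH, and Lgmn, the precursor-cutting legumain, 163 ± 35.1 CPM with anti-LAIR1 and 151 ± 12.8 CPM with anti-KLH. Psap, which encodes the saposins, averaged 505 ± 25.1 CPM with anti-LAIR1 and 479.7 ± 64.3 CPM with anti-KLH, and Lamp1, a major lysosomal membrane protein, 717 ± 69.1 CPM with anti-LAIR1 and 747 ± 10.6 CPM with anti-KLH. Lipa, the acid lipase, averaged 108 ± 13.9 CPM with anti-LAIR1 and 88.6 ± 12.9 CPM with anti-KLH, and Ppt1, a thioesterase, 68.4 ± 6.64 CPM with anti-LAIR1 and 57.1 ± 7.01 CPM with anti-KLH (edgeR adjusted p of 0.967 and 0.966). The progranulin gene Grn averaged 150.7 ± 4.6 CPM with anti-LAIR1 and 140.5 ± 13.7 CPM with anti-KLH, the mannose-6-phosphate receptor Igf2r 175 ± 15.7 CPM with anti-LAIR1 and 162 ± 16.7 CPM with anti-KLH, the sorting receptor Sort1 23.2 ± 10.2 CPM with anti-LAIR1 and 31.9 ± 15.6 CPM with anti-KLH, and the pump subunit Atp6v1b2 119 ± 13.0 CPM with anti-LAIR1 and 130.2 ± 7.92 CPM with anti-KLH.

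Laptm5 and Laptm4b were the 2 lysosomal membrane genes whose groups did not overlap. Laptm5, a lysosomal protein of blood cells, averaged 40.1 ± 8.02 CPM with anti-LAIR1 and 26.5 ± 2.89 CPM with anti-KLH, higher by 0.60 on the log2 scale (SE 0.16, edgeR adjusted p = 0.680). Laptm4b averaged 59.8 ± 3.35 CPM with anti-LAIR1 and 52.0 ± 0.744 CPM with anti-KLH (adjusted p = 0.947). Of the factors that bind CLEAR elements, Tfeb was at 9.61, 8.58, 8.98 and 8.79 CPM in anti-LAIR1 tumours and 8.27, 8.83 and 6.92 CPM in anti-KLH tumours. Tfec, the member made chiefly in macrophages and osteoclasts, averaged 3.27 ± 0.289 CPM with anti-LAIR1 and 2.18 ± 0.760 CPM with anti-KLH, with overlap (edgeR adjusted p = 0.980). Of the 4 factors 3 were above 0, with a median of 0.091.

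**Figure D4:**
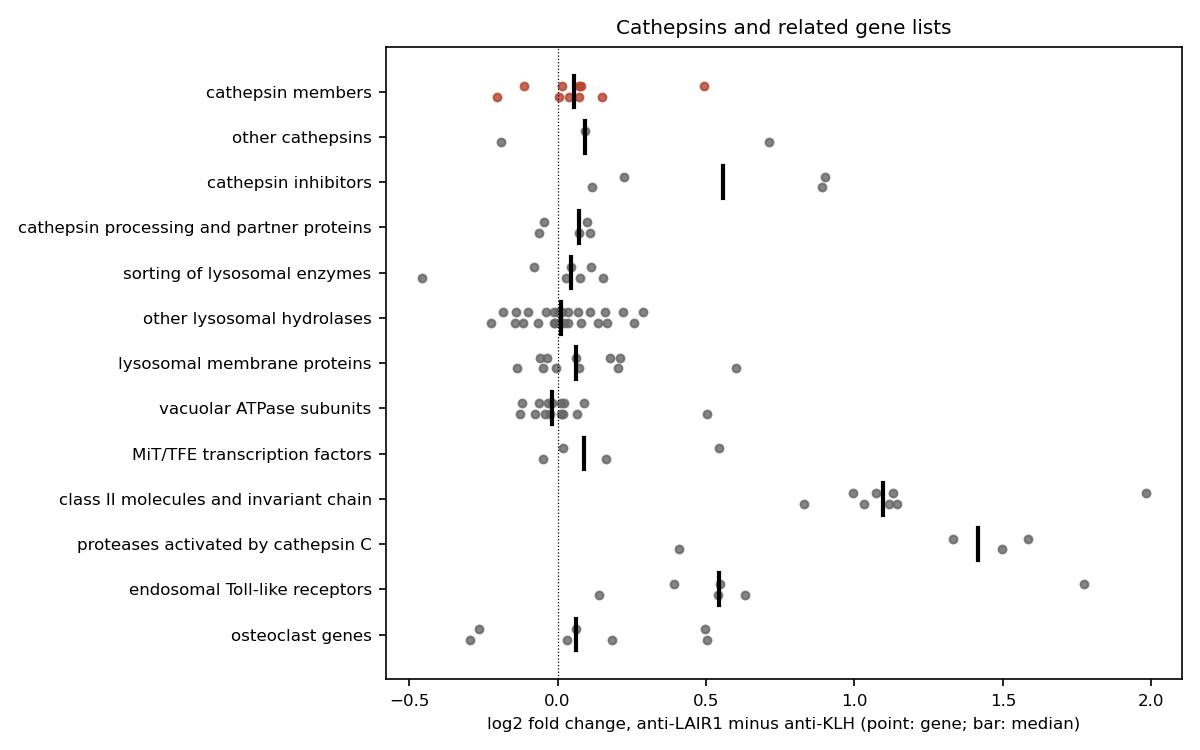
Log2 fold changes (anti-LAIR1 minus anti-KLH, horizontal) of the tested genes of each list, 1 point per gene, with a bar at the list's median; the 10 cathepsins are on top in red. The cathepsin median of 0.056 lies beside those of the lysosomal lists, while class II genes have a median of 1.096 and Ctsc substrates of 1.41.

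The precision differed widely between members. The 95% intervals of Ctsa, Ctsd, Ctse and Ctsz stayed between -0.33 and 0.29 on the log2 scale, whereas those of Ctsh, Ctss and Ctsk reached 0.71, 1.18 and 1.147. For 6 of the 10 members the highest of the 7 libraries was less than 1.5 times the lowest. A p that misses the threshold does not show that the groups were alike, and the upper ends of the Ctsk and Ctss intervals were at 2.22-fold and 2.27-fold.

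**Figure D5:**
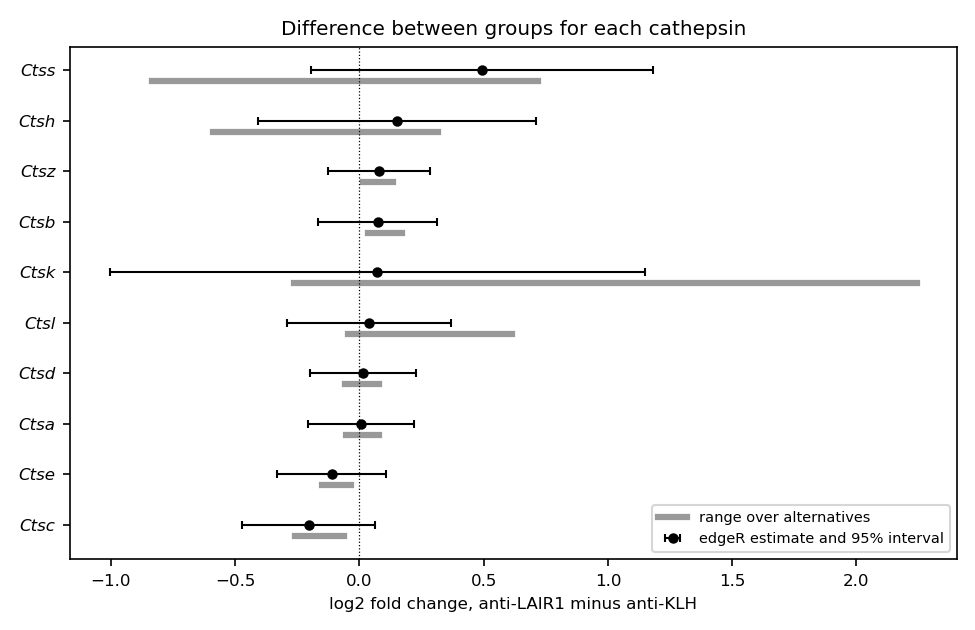
Log2 fold change of each cathepsin (anti-LAIR1 minus anti-KLH, horizontal; n = 4 and n = 3), as edgeR estimate with 95% interval (black) and the range over the alternative analyses (grey). All 10 intervals include 0, from the narrow ones of Ctsz and Ctsa to that of Ctsk, -1.003 to 1.147.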

How the data were processed

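RNA was extracted with Trizol and a column kit and sequenced as single reads from directional libraries, per the labels' protocols. Raw counts of reads by gene symbol, as the authors deposited them in 1 table, were the input. The submitters' processing notes name the build mm10 and, as tools, featureCounts 2.0.1, STAR 2.7.6, edgeR 3.40.1 and Trim Galore. Annotation, strand setting and treatment of multiply aligned reads were not found in these notes. The table had 0 blank rows and 0 unused sample columns.

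Counts were fitted for all 7 libraries in R 4.3.3 with edgeR 4.0.16 (filterByExpr, minimum count 10; TMM; robust quasi-likelihood test; Benjamini-Hochberg over 13545 genes; threshold 0.05), after tests on simulated data. CPM uses TMM-scaled totals, and log2 CPM a prior count of 2. SE is the fold change divided by the root of F, and intervals are at 95%. Replicate numbers follow accession order and pair nothing. A p-value for a group difference sets that difference against the variation between mice within groups. Each permutation p concerns the pairing of levels over the 7 libraries. Depth limits little for the 10 members, as 3 counts are worth 0.119 to 0.305 CPM, which covers counting error only. Some other named genes rest on few reads, down to 4 for H2-DMb2 and Tlr9 and 2 for Cst7 in anti-KLH replicate 3, and 5 for Cma1 in anti-KLH replicate 1.

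The members, lists and tests were chosen with earlier results of these data known, and the added alternatives and relations after the values were seen. Named genes are all members, the 2 genes of smallest p in each list (up to 4 where any passed), a fixed set (Cst3, Cstb, Cst7, Lgmn, Neu1, Psap, Cd74, Tfeb, Tfec, Lamp1 and Acp5) and the 3 genes most like each member (1 gene for Ctsz is not reported here); Mmp9, Tnfrsf11a, Csf1r, Sftpb and Sftpc were named after their values were seen. DESeq2 1.42.0, limma 3.58.1 (voom with quality weights), other scalings and filters, covariates and leaving out each library were alternatives. Member coordinates and exon lengths come from GENCODE M21 basic, and figures were drawn with matplotlib 3.10.9.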

Additional observations from a re-analysis of the deposited data

Results flagged for a closer look

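In the anti-LAIR1 group, 3 of 67 levels checked had 1 tumour far from the other 3 by Dixon's criterion, a criterion that flags about 1 in 20 groups by chance. For Acp5, replicate 2 stood at 44.8 CPM, and its gap to the next tumour was 0.924 of the group's range. For the summed osteoclast genes, replicate 2 stood at 269 CPM, against 112 to 123 CPM in the others, a gap of 0.930 of the range. The summed adipocyte markers had such a gap of 0.869, in a range of 3.95 to 45.7 CPM, with replicate 2 again the highest. All 3 flagged levels thus concern the same tumour, and Acp5 is itself part of the osteoclast sum. None of the 10 cathepsins was among these 3.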

How the results depend on the processing

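No cathepsin was called under any of the 15 alternatives. The number of genes called over the whole table was 0 in the main analysis, 54 with DESeq2, 1 with the macrophage marker level as a covariate, 0 to 3 without single libraries (3 without anti-LAIR1 replicate 2) and 0 in the others. Ctsb, Ctsc, Ctse and Ctsz kept their direction throughout. Other members, all uncalled, changed sign. Without single libraries the log2 fold change ran from -0.055 to 0.081 for Ctsa, -0.059 to 0.078 for Ctsd, -0.042 to 0.32 for Ctsh, -0.26 to 0.65 for Ctsk and -0.047 to 0.15 for Ctsl. With limma-voom Ctsh was at -0.12 and Ctsk at -0.048. With the muscle level as a covariate Ctsh was at -0.49, and this level overlapped between groups only through anti-LAIR1 replicate 2. With the macrophage level Ctsa was at -0.032, Ctsh at -0.59, Ctss at -0.84, Ctsl at 0.62 and Ctsk at 2.24. These values come from a covariate that did not overlap between groups and cannot be separated well from treatment. Ctsc ran from -0.26 to -0.12 without single libraries and was at -0.064 with the muscle level. The cause was not tested. Of 350 list medians, 330 moved by less than the spread between libraries. The inhibitor median was 0.23 with the CPM filter, 0.24 with the muscle level and 0.25 once anti-LAIR1 replicate 1 was left out. With the muscle level the median was 0.28 for Toll-like receptors, 0.91 for osteoclast genes and 0.18 for macrophage markers. Without anti-KLH replicate 1 it was 0.93 for Ctsc substrates, 2.69 for T cell markers, 0.27 for mast cell markers and 0.17 for processing partners, which were at 0.026 without anti-KLH replicate 2 or 3. Of the 43 relations with marker levels, 0 passed after adjustment, and 16 changed sign without the 2 libraries farthest from the median. With macrophage markers r became 0.41 for Ctsk and 0.24 for Ctsl. With fibroblast markers it became -0.30 for Ctsa, -0.046 for Ctsb, -0.63 for Ctsc, -0.15 for Ctsd, -0.71 for Ctse, 0.69 for Ctsh, 0.029 for Ctss and 0.67 for Ctsz. With epithelial markers it became -0.028 for Ctse. With muscle markers it became 0.25 for Ctsb, 0.068 for Ctse, 0.41 for Ctsl, -0.29 for Ctss and -0.29 for Ctsz. No paired analysis was possible because the labels give mouse names and no replicate numbers shared by the groups. The 95% intervals of Ctsk and Ctss reached 2.22-fold and 2.27-fold.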
